A study of Mus musculus with 2 samples.

Results

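The 26S proteasome genes of activated mouse CD4+ T cells were compared between 1 array from a culture without cytokine and 1 array from a culture with IL-27. The genes were taken by symbol, as every gene whose single symbol in the array annotation begins with Psma, Psmb, Psmc, Psmd, Psme, Psmf or Psmg and a number. This gave 46 of the 11807 genes on the array, read by 67 probe sets. They comprised 5 immunoproteasome genes (Psmb8, Psmb9, Psmb10, Psme1 and Psme2) and 41 others. Of the 41, Psmc3ip and Psme3ip1 match by symbol alone, since they encode partners of proteasome proteins and not subunits. Psmb11, Psmc6, Psmd10, Psme2b and Psme4 were not analysed here.

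The proteasome is the main protease of the cytosol and nucleus. Its 20S core is a barrel of alpha and beta rings with the active sites on beta subunits, and the 19S cap, made of ATPases and non-ATPase subunits, recognises ubiquitin-tagged proteins, unfolds them and feeds them into the barrel. Interferons and related cytokines lead cells to build the core with Psmb9, Psmb10 and Psmb8 in place of the constitutive active subunits Psmb6, Psmb7 and Psmb5, which shifts the peptides it cuts towards those that class I MHC molecules bind. Psme1 and Psme2 form PA28, a ring that opens the core and is raised by the same cytokines. Lymphocytes hold much immunoproteasome even at rest. IL-27 signals in part through STAT3, and the transcription factor IRF1 is a known activator of the immunoproteasome genes.

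Both groups were naive CD4+ T cells of female C57BL/6J mice, taken from spleen and lymph nodes and activated for 60 h by plate-bound antibodies to CD3 and CD28. The untreated culture received no cytokine, and the other received 25 ng/ml of recombinant murine IL-27 for that time. The labels do not say how many mice were pooled. Values are intensities on a linear scale, normalized by RMA, and a difference is the log2 intensity of the array labelled IL-27-treated minus that of the array labelled Untreated. With 1 array per group there was no replicate, no test was possible, and no p-value is given.

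The arrays had like median intensities, 33.3 untreated and 32.4 with IL-27. A background floor of 21.8 was set from 44 genes of other tissues, which 7051 genes passed on 1 or both arrays. Of 9 CD4+ T cell markers measured, 9 exceeded it, with a summed intensity of 18328 untreated and 16787 with IL-27. They split, 3 reading higher with IL-27 and 6 lower, where 51.9% of all genes above the floor read higher. Their median difference was -0.15. Among the higher, Cd4 differed by 0.21, but by -0.16 with another probe set. Of the 9, 3 were at least 1.2-fold lower, where 20.7% of all genes above the floor were. These were Cd5 (2650 and 1639), Cd28 (-0.36) and Cd247 (-0.30, but up to 0.05 by another probe set). Cd8a was below the floor on both arrays, while Cd8b1 read 119.3 and 176.5. Above the floor were 1 of 8 B cell markers, 2 of 8 macrophage markers and 1 of 6 dendritic cell markers, the last being Batf3, which T cells also express. The lists summed to 109.8 and 119.3 for B cells, to 152.3 and 124.1 for macrophages, and to 305.8 and 264.7 for dendritic cells. These sums include the genes below the floor, which were most of each list. Of 4 NK cell markers, Klrd1 and Klrk1 were above the floor on the untreated array alone, at 114.2 and 68.2. Ncr1 (14.8 and 13.9) and Klrb1c (9.99 and 10.3) were below it on both arrays, and the list summed to 207.2 and 55.3. Known targets of IL-27 signalling stood against the labels: Socs3 read 1122 untreated and 185.8 with IL-27, and Il10, Il21 and Prdm1 likewise read lower with IL-27. Every direction below follows the labels and would turn if they were exchanged.

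The promoters of 4 genes are shown: 3 immunoproteasome genes and Psmb5, the constitutive counterpart of Psmb8. They were chosen after the motif search, as examples that each hold a match. Each runs from 250 bases before to 50 bases after the RefSeq transcript start on GRCm38.p6. Capitals mark matches, on either strand, to the interferon-stimulated response element (ISRE, 2 GAAA repeats with 2 bases between them), the STAT-binding GAS element (TTCNNNGAA), the antioxidant response element core (TGACNNNGC), through which the factor Nfe2l1 drives proteasome genes, and the CCAAT box. No match shown overlaps another.
Psmb9, chr17:34187281-34187580, minus strand: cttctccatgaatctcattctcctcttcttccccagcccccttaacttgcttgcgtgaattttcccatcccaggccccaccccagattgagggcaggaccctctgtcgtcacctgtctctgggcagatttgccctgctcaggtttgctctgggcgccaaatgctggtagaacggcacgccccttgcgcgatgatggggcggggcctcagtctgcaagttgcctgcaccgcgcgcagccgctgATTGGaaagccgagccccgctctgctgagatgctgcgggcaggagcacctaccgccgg
Psmb8, chr17:34197945-34198244, plus strand: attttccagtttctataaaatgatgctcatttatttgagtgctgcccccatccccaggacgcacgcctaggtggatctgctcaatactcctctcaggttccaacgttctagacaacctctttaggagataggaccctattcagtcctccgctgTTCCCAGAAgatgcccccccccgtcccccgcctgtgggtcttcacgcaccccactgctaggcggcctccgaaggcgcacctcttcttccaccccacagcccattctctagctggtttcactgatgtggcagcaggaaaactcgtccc
Psme1, chr14:55578244-55578543, plus strand: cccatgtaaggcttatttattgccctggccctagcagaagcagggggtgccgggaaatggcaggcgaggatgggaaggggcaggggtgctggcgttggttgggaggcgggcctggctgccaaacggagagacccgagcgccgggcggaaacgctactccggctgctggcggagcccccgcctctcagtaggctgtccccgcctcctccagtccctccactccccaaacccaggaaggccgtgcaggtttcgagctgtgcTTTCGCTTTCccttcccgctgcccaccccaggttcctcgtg
Psmb5, chr14:54617946-54618245, minus strand: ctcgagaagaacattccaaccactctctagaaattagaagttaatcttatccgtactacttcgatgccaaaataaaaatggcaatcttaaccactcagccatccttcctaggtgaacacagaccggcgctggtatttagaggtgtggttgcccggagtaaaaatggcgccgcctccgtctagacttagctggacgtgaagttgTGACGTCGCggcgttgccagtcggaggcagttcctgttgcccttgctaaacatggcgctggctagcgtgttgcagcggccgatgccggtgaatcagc

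Psmb9 is transcribed away from the peptide transporter gene Tap1, and the promoter windows of the pair share 275 bases. That of Psmb9 held a CCAAT box as its only match. Psmb8 held 1 GAS match, TTCCCAGAA, beginning 97 bases before the start, and Psme1 held 1 ISRE match on the other strand, TTTCGCTTTC, beginning at base 10 of the transcript. Psmb5 held 1 antioxidant element match, TGACGTCGC, beginning 47 bases before the start. The windows of Psmb10 and of the 2 listed starts of Psme2 held none of the 4 motifs. Among 32851 promoter windows of all genes, 3.44% held the ISRE, 8.30% the GAS element, 12.4% the antioxidant element and 37.4% the CCAAT box. Of the 33 windows of the other proteasome genes, 4 held the ISRE (Psmb3, Psmd4, Psmd9 and Psmg4), 2 the GAS element (Psmd2 and Psmg1), 4 the antioxidant element (Psmb5, Psmb6, Psmd9 and Psmd12) and 11 the CCAAT box. A match is a stretch of letters and not a measured binding site.

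All 5 immunoproteasome genes read higher on the array labelled IL-27-treated. Their differences ran from 0.28 to 0.55 with a median of 0.45, or 1.21-fold to 1.46-fold. Psmb9, the inducible beta 1 subunit that sits in the MHC region, read 1367 untreated and 1999 with IL-27, a 1.46-fold difference, and only 5.67% of genes above the floor had a larger one. Its other probe set above the floor gave 1039 and 1395, or 0.42. Psmb10, the inducible beta 2 subunit, read 632.9 and 863.9, or 1.36-fold. Psmb8, the inducible beta 5 subunit, read 2445 and 2966, or 1.21-fold.

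The PA28 genes were also higher. Psme2, which encodes PA28 beta, read 2328 and 3267, or 1.40-fold. Psme1, for PA28 alpha, read 3242 and 3931, or 1.21-fold. PA28 is built from both proteins, and their genes lie close together with Emc9 between them, which differed by -0.05 (83.8 and 80.8). Psme2b, a near-identical copy of Psme2, has no probe set with its single symbol here. Whether the Psme2 probe set also reads it was not checked, so the 2 transcripts were not told apart. In cultures of this kind, fewer cells of a type and less RNA per cell cannot be told apart either. Cd8b1, a marker of other T cells, was 1.48-fold higher on the same array, and its part in these differences was not tested.

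Of the 5 genes, 5 were at least 1.2-fold higher, where 21% of all genes above the floor were. None reached 2-fold, which 1.46% of all genes did. At this low threshold the normalization mattered: after loess, Psmb8 and Psme1 differed by 0.25 each and fell short of 1.2-fold, which is 0.26 on the log2 scale, while Psmb9, Psmb10 and Psme2 stayed past it.

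**Figure D1:**
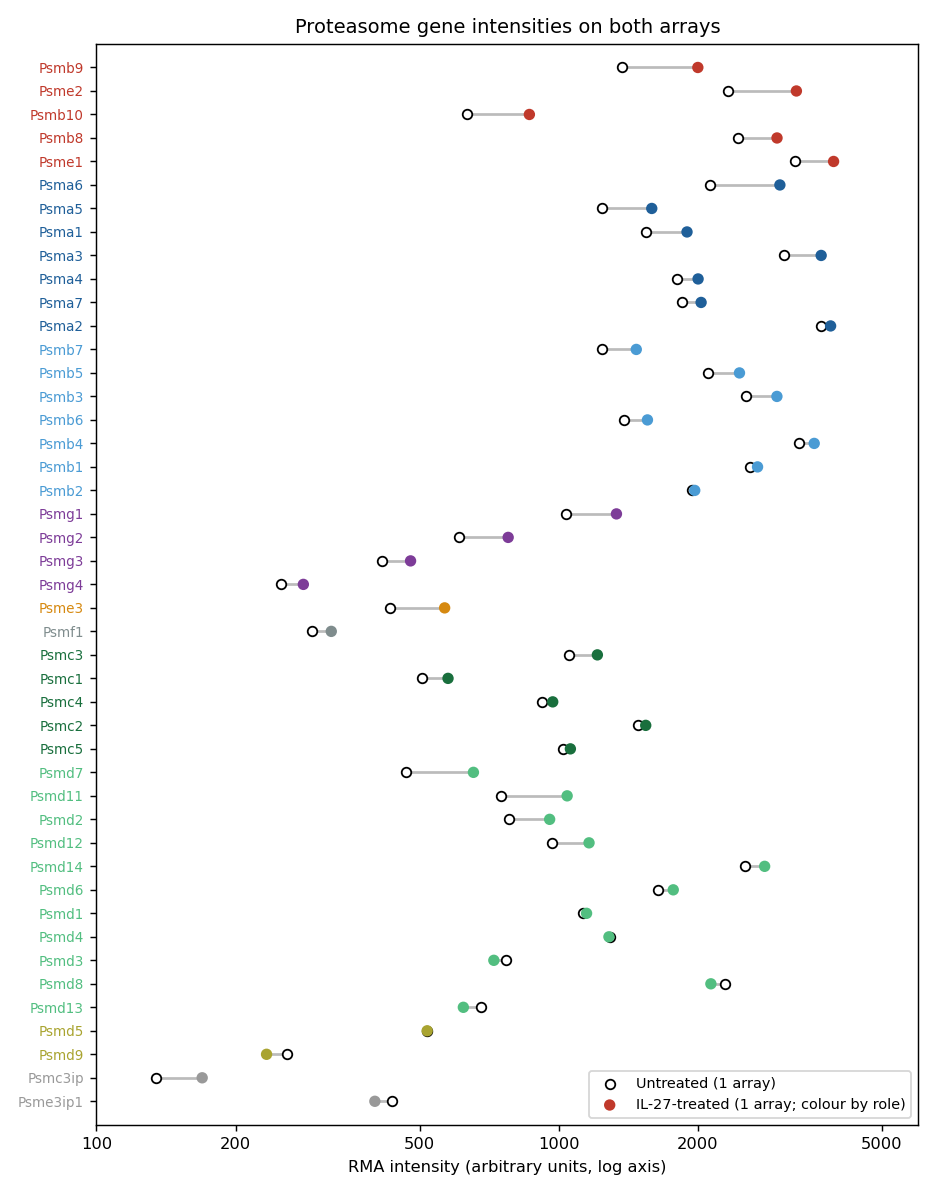
RMA intensity (log axis) of the 45 genes above the floor on the array labelled Untreated (open circles) and the array labelled IL-27-treated (filled circles, coloured by role, in the order immuno subunits, 20S alpha, 20S beta, 20S assembly, Psme3, Psmf1, 19S ATPases, 19S non-ATPases, 19S assembly, symbol matches only). Filled circles lie to the right for 38 of 45 genes; levels of different genes cannot be compared with each other.

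The genes of the 3 constitutive active subunits were higher too, so the differences were compared pair by pair. These are RNA levels, and the exchange of subunits in the particle was not measured. Psmb6, the constitutive beta 1 subunit, read 1382 and 1556, a difference of 0.17. Psmb7, for beta 2, read 1240 and 1471, or 0.25. Psmb5, for beta 5, read 2104 and 2460, or 0.23. The gap is the difference of the immuno gene minus that of the gene it replaces. It was 0.38 at beta 1 (Psmb9 and Psmb6), 0.20 at beta 2 (Psmb10 and Psmb7) and 0.05 at beta 5 (Psmb8 and Psmb5). The pooled SD between probe sets of a gene was 0.16 for the 11 proteasome genes with 2 probe sets above the floor, and 0.059 for the 8 whose probe sets both read at least 100 on both arrays. The larger SD rests mostly on 1 gene, Psmd7, whose probe sets gave 0.49 and, at a dim level, -0.21. For a gap between 2 genes the 2 SDs amount to 0.23 and 0.084. The gap at beta 5 was below both, that at beta 1 above both, and that at beta 2 between them. With the mean of its 3 probe sets for Psmb9, of which 1 is below the floor, the gap at beta 1 was 0.22 and thus between them too. This SD covers error between probe sets only, not that between cultures.

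**Figure D2:**
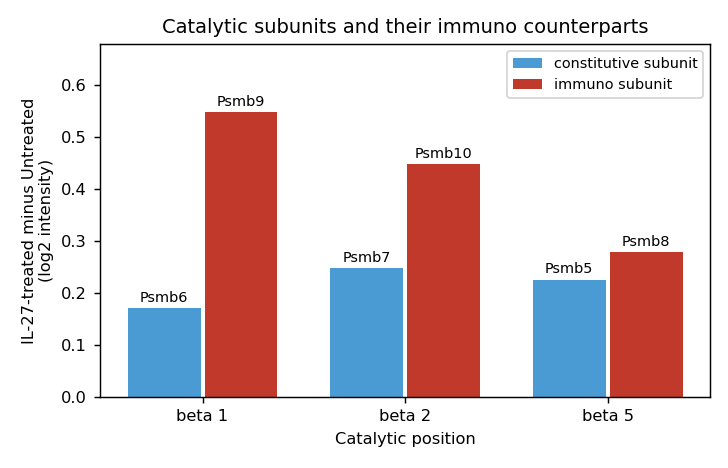
Difference, IL-27-treated minus Untreated (log2 intensity, 1 array per group, no error bars possible), of the constitutive and immuno subunit at each catalytic position. The gap between the bars is 0.38 at beta 1, 0.20 at beta 2 and 0.05 at beta 5.

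The rest of the 20S core was higher as well. Of the 41 other genes, 40 exceeded the floor, all of them on both arrays; the exception was Psma8, a subunit of the testis proteasome, at 13.1 and 11.3. The 7 remaining alpha genes, which form the outer rings and the gate, all lay above 0, with a median of 0.27. Psma6 read 2119 and 3009, or 1.42-fold, the largest difference among the genes outside the immuno set. Psma5 (0.36), Psma1 (0.29) and Psma3 (0.27) were also at least 1.2-fold higher. Psma4 differed by 0.15, Psma7 by 0.14 and Psma2 by 0.07.

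Of the 7 constitutive beta genes, 7 lay above 0 but 0 reached 1.2-fold, with a median of 0.17. Beside the active subunits, Psmb3 differed by 0.22, Psmb4 by 0.11, Psmb1 by 0.05 and Psmb2 by 0.02, a sign that turned after loess. These 4 encode inactive subunits that immunoproteasomes keep. The core as a whole, 14 alpha and constitutive beta genes, had a median of 0.19, which is 0.25 below that of the immuno genes. Genes of core assembly lay on the same side. Psmg1 to Psmg4, the chaperones that put the alpha ring together, differed by 0.36, 0.35, 0.21 and 0.16, and 2 of the 4 were at least 1.2-fold higher. Of all genes 21% were at least 1.2-fold higher and 51.9% higher by any amount.

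The 19S cap was mixed. Its 16 genes had a median of 0.09, 0.10 below the core, with 12 above 0 and 4 below. After loess 11 lay above 0, and with array medians subtracted 13 did. The shares of all genes above 0 were 51.9%, 48.4% and 56.5% in the same order. The 5 ATPases, which unfold the substrate, ran from 0.05 to 0.20: Psmc3 at 0.20, Psmc1 at 0.19, Psmc4 at 0.07, Psmc2 at 0.06 and Psmc5 at 0.05. None reached 1.2-fold. The 11 non-ATPase genes spread widest, from -0.13 to 0.49.

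Psmd11, whose product clamps the cap onto the alpha ring, read 749.8 and 1043, or 1.39-fold, and 0.42 by its second probe set. Psmd7, the structural partner of the deubiquitinase Psmd14, read 466.8 and 653.8, or 1.40-fold. Its dimmer probe set read 60.8 and 52.5, or -0.21, so the probe sets of Psmd7 differ in sign, the only such case among the 11 genes with 2 to compare. Psmd2, a cap scaffold subunit, differed by 0.29 and Psmd12 by 0.26, just at 1.2-fold. Psmd14, which removes ubiquitin chains, differed by 0.14, Psmd6 by 0.11 and Psmd1 by 0.03, or -0.02 after loess.

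A few genes of the cap and its assembly lay below 0. Psmd13 read 679.8 and 621.8, a difference of -0.13. Psmd8 read 2293 and 2134, or -0.10, and Psmd3 differed by -0.09. The ubiquitin receptor gene Psmd4 differed by -0.01, which turned to 0.03 with array medians subtracted. Psmd9, an assembly chaperone of the ATPase ring, read 258.8 and 233.3, or -0.15, the lowest difference above the floor, and Psmd5, another such chaperone, differed by -0.002, or 0.03 by the same subtraction. None of these was 1.2-fold lower, as 20.7% of all genes were, or 2-fold lower, as 2.69% were.

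Outside core and cap, Psme3, which forms the nuclear activator PA28 gamma and is not an interferon-induced gene in the way of Psme1 and Psme2, read 431.1 and 566.4, or 1.31-fold. Its dimmer probe set gave 0.59. Psmf1, which encodes the proteasome inhibitor PI31, differed by 0.14. The symbol matches went both ways, with Psmc3ip, a factor of meiotic recombination, at 0.33 and Psme3ip1 (435.6 and 400.1) at -0.12.

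**Figure D3:**
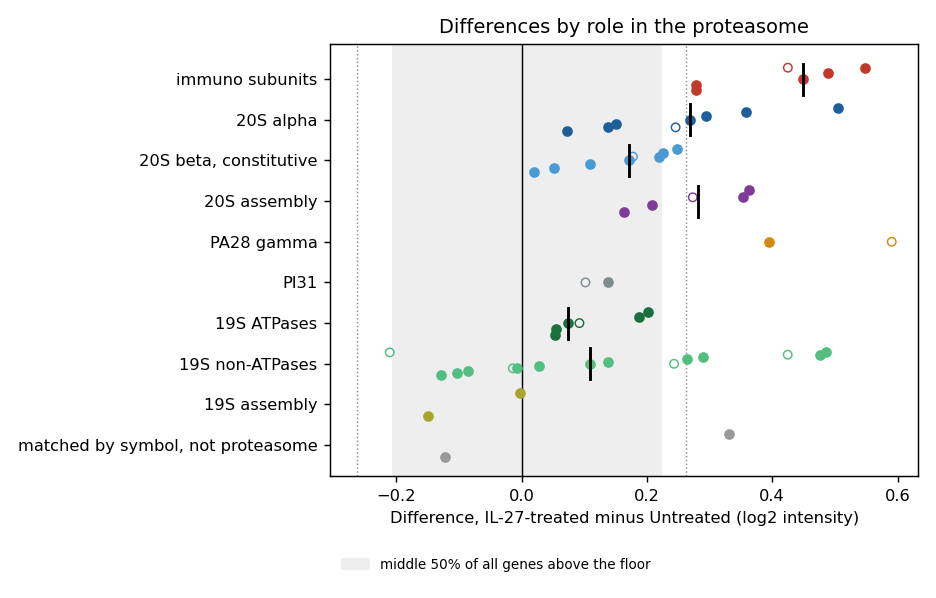
Difference, IL-27-treated minus Untreated (log2 intensity), by role; filled points are the probe set used for a gene, open points its other probe sets above the floor, black bars medians of groups over 2 genes, dotted lines 1.2-fold, and the grey band the middle 50% of all genes (-0.21 to 0.22). The 5 immuno genes lie above the band, the beta and ATPase genes mostly within it, and the 19S non-ATPases on both sides of 0.

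Set against all others, the immuno genes had a median of 0.45 and the 40 other genes above the floor one of 0.16, a gap of 0.29. The median over all 7051 genes was 0.02. The ranges overlapped: 10 of the 40 others exceeded the lowest immuno gene, and 3, Psma6, Psmd7 and Psmd11, exceeded the immuno median. Of the 40 others, 33 were higher by any amount, against 51.9% of all genes, and 12 were at least 1.2-fold higher. For all 45, 17 passed 1.2-fold upwards and 0 downwards, against 21% and 20.7% of all genes. After loess 11 were at least 1.2-fold higher, when 18.5% of all genes were. Among genes reading at least 500 on both arrays, where differences are smaller, 16.9% were at least 1.2-fold higher, and 14 of the 37 proteasome genes of that level were. Of those 37, 32 were higher by any amount, against 55.7% of all genes of that level.

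**Figure D4:**
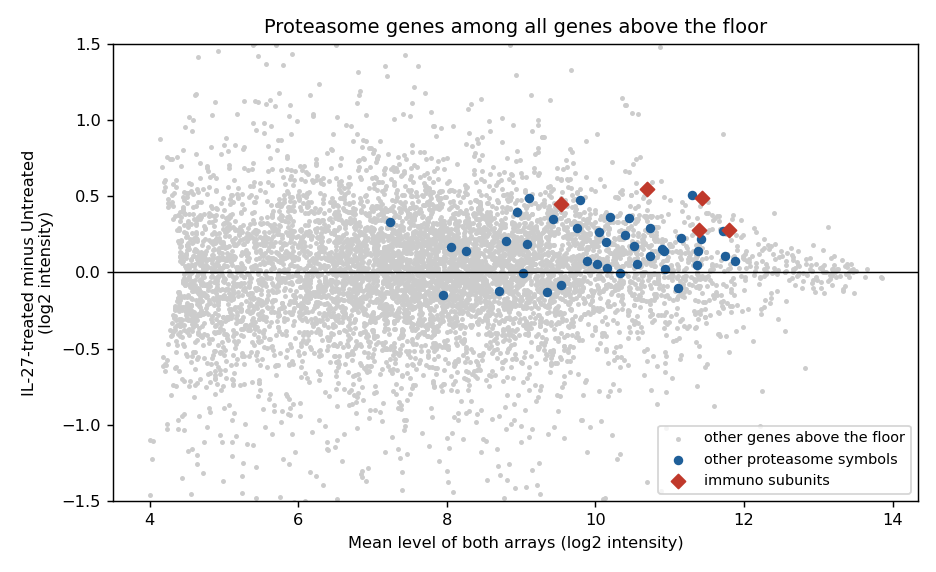
Difference, IL-27-treated minus Untreated (log2 intensity), against the mean level of both arrays (log2 intensity) for genes above the floor; 121 genes beyond 1.5 in either direction are not drawn. Red diamonds are the 5 immuno genes and blue points the 40 others, which lie mostly above 0 and within 0.51 of it.

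Genes that work with the proteasome had a median difference of 0.07, with a range from -0.11 to 0.68. Of 23 listed symbols of partner proteins, some of them older names of another, 13 were measured. Of the 13, 9 lay above 0, where 51.9% of all genes above the floor did. At least 1.2-fold higher were 3 and lower 0, against 21% and 20.7% of all genes. A count of 3 of 13 is near the 21% of all genes, so it is no result about the partners. The higher ones were the shuttle factors Ubqln4 (0.68, and 0.28 by its other probe set) and Ubqln2 (0.27), and Usp14 (0.37), a deubiquitinase bound to the cap. Pomp, the maturation factor of the core that immunoproteasome assembly leans on, read 2323 and 2343, a difference of 0.01 that turned to -0.02 after loess. The 6 ubiquitin and E1 genes listed were not analysed here.

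Regulators of proteasome genes were mixed. Nfe2l1, the factor that restores proteasome synthesis when activity drops, differed by 0.18. Ngly1, the glycanase that activates it, read 471.9 and 288.9, or 1.63-fold lower, while its small Maf partners split, Mafk at 0.57 (41.2 and 61.2) and Mafg at -0.38. Nfe2l2 differed by -0.13, and the median of these 5 was -0.13.

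On the interferon side, Irf1, an activator of the immunoproteasome genes, read 628.5 and 794.3, a difference of 0.34. Irf7 was below the floor untreated and read 28.6 with IL-27, at least 1.31-fold higher. Of the 7 interferon regulators measured 6 lay above 0, where 51.9% of all genes above the floor did. Of the 7, 2 were at least 1.2-fold higher, where 21% of all genes were. Their median was 0.11, and Irf9, a neighbour of Psme2, differed by 0.20. Tap1, Tap2 and Nlrc5 of the class I pathway were not analysed here. Of the 5 class I peptide supply genes measured, Tapbp alone was at least 1.2-fold higher, by 0.53, and by 0.10 with its other probe set. The median was 0.07. Counts of 2 of 7 and 1 of 5 are near the 21% of all genes, so they are no result about these lists.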

How the data were processed

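Expression was measured on 2 Affymetrix arrays, 1 per group, from 100 ng of total RNA labelled by 3' in vitro transcription. The deposited table holds 1 intensity per probe set, made by the authors with RMA per the submitters' processing notes; its version is not given in the sources used here. This step makes the arrays' distributions alike, so a change in total RNA cannot be seen.

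Of 22716 probe sets, 18003 had 1 gene symbol, 287 several and 4426 none. A gene was read from its brightest probe set by mean log2 level, without a pseudocount. The floor was the 95th percentile of genes of other tissues, 44 of 50 measured. Symbols of all 46 genes matched RefSeq (GRCm38.p6), and 38 had a promoter there. Every gene of the family is named. Both intensities are given for the immuno and catalytic genes, for the 4 highest and 4 lowest others and for probe sets of opposite sign; further intensities were chosen after the values were seen. In the other lists, genes past 1.2-fold and a few set regulators are named. The members, lists and thresholds were chosen with earlier results of these data known; the level of 500 was chosen after seeing the values.

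Alternatives covered probe set choice, normalization, the filter on dim genes, a pseudocount of 16, the fold threshold and the symbol matches that are not proteasome genes. The scripts' arithmetic was checked on simulated arrays with known differences, which says nothing of the real values' error. Python 3.11.15, numpy 2.4.6, pandas 2.3.3 and statsmodels 0.14.6 were used.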

Additional observations from a re-analysis of the deposited data

How the results depend on the processing

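Across 10 alternative settings 110 values were recomputed, and 107 stayed within 1.5 times of a count or within the SD between probe sets (0.16) of a difference. Of the medians and differences 0 changed direction, which was not assessed for counts. Many values could hardly move: counts of 0 stayed 0, and Psmb8, with 1 probe set, kept its value when only probe sets or filters changed. The tolerance of 0.16 is also as large as the median of the other proteasome genes. The figure of 107 is therefore a weak measure of stability. Of the 45 genes, Psmb2 and Psmd1 changed sign after loess, and Psmd4 and Psmd5 when array medians were subtracted. The immuno median stayed between 0.39 and 0.48, that of the other proteasome genes between 0.12 and 0.19, and the gap between 0.23 and 0.30. The count of proteasome genes at least 1.2-fold higher, 17, was 11 after loess, 7 at a threshold of 1.3-fold and 0 at 1.5-fold; 12.7% and 5.09% of all genes passed the last pair of thresholds. Loess shifted these 45 genes by a median of -0.04, so that genes just past 1.2-fold, Psmb8 and Psme1 among them, fell short. Subtracting array medians gave 18. No gene was 1.2-fold lower under any of them. No paired analysis was possible because each group holds 1 array, and for the same reason no array could be left out. Precision is limited by the number of arrays, and variation between cultures was not measured.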
